A study of Mus musculus with 7 samples.

Results

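The domains described here were broad stretches of H3K27ac in P7 GNPs, super-enhancer-like in extent, that overlapped no Chd7 peak in the same cell type. They were chosen by joining the H3K27ac peaks of WT GNPs on chromosomes 1 to 19 and X wherever the gap was 12.5 kb or less, scoring each joined region by the sum of peak length times pileup (the coverage by ChIP fragments at the peak summit, on the scale of the deposited table), and keeping the 600 regions with the highest scores. Of these 600 domains, 354 held no Chd7 peak of WT GNPs and 246 held at least 1. H3K27ac length, pileup, score and the absence of Chd7 peaks therefore selected the domains, and values of these measures are given as a description only. Across all 17532 joined regions, 16128 (92%) held no Chd7 peak. The Chd7 library had 1946 peaks and the H3K27ac library 31400.

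The series examined where Chd7, H3K27ac and Top2b lie in the chromatin of the mouse cerebellar granule lineage, by ChIP-seq on C57BL/6 animals at postnatal day 7. Peaks were available for H3K27ac and Chd7 in freshly isolated WT GNPs, for Chd7 in Chd7-deficient GNPs, and for Top2b in WT and Chd7-deficient CGNs, which were grown from GNPs for 48 hours without added SHH. There was 1 sample per condition, so intervals below cover counting error only and no test between conditions was possible. WT in the study denotes Chd7 f/f mice, and Chd7-deficient denotes Atoh1-Cre::Chd7 f/f mice, in which Cre is driven from Atoh1 and deletes Chd7 in the granule lineage and not in Purkinje cells. The sample labels give the Chd7 KO state without the alleles. The cells were bulk preparations from a percoll gradient, and a peak present in few cells cannot be told apart from a weak peak present in all. Read depth is not in the peak files.

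GNPs divide in the external granule layer of the newborn cerebellum in response to SHH released by Purkinje cells, then leave the cell cycle and become CGNs. Acetylation of histone H3 at lysine 27 marks active promoters and enhancers, and long clusters of such marks, called super-enhancers (SEs), often lie at genes that define a cell type. Chd7 is an ATP-dependent chromatin remodeller that moves nucleosomes at enhancers and promoters. Top2b, the topoisomerase II form of postmitotic neurons, passes one DNA duplex through another to relieve torsion in active chromatin.

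The H3K27ac summits of the highest domains without Chd7 were mostly rich in CpG. Among the 10 highest-scoring domains, 9 summit windows held 12 to 25 CpG dinucleotides at 67.5 to 81.5% GC, and 1, in Xkr7, held none. The same count was not made for the domains with Chd7, and CpG-rich shares of both sets are given below. Windows of 75 bp on either side of the summit of the strongest H3K27ac peak are shown for 5 of the 10 highest-scoring domains, read on the plus strand of GRCm38 (RefSeq assembly), with CpG dinucleotides in capitals. They overlap no UTR and no protein-coding exon of the GENCODE annotation, and were picked after their composition was seen, to show the CpG-rich form at genes described below and the 1 exception.
Nfix intron, chr8:84799562-84799712: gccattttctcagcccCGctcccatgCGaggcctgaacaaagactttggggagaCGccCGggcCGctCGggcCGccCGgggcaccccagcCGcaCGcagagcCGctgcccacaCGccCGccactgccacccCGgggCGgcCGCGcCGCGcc
Nfia intron, chr4:97778397-97778547: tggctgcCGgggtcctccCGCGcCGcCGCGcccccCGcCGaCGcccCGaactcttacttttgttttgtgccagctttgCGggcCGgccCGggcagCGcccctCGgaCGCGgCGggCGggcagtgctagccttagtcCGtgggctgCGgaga
Cdk2ap1 intron, chr5:124353995-124354145: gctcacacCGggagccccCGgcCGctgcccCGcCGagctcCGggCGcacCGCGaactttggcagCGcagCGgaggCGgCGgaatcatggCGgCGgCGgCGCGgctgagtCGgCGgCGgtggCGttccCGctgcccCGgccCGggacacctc
Xkr7 intron, chr2:153033402-153033552: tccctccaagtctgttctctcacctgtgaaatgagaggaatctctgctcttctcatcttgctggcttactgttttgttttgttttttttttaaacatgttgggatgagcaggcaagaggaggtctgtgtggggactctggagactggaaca
Mir9-3hg exon, chr7:79500192-79500342: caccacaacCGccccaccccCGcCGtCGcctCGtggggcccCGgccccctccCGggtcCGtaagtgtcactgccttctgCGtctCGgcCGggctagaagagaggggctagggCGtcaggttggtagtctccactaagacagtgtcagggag
The Nfix, Nfia and Cdk2ap1 windows held 19, 21 and 25 CpG dinucleotides, with GC contents of 76.8%, 74.2% and 79.5%. Their summits lay 0.707, 0.394 and 9.01 kb from a protein-coding start site, so those of Nfix and Nfia were close to promoters. Each gene counted with its outermost start site alone, so a promoter inside a gene would not be seen here. The window of the noncoding Mir9-3hg host gene held 12 at 68.2% GC. In contrast, the Xkr7 window held 0 CpG dinucleotides at 45.0% GC, although its H3K27ac fold enrichment of 34.5 was close to the 36.04 of the Cdk2ap1 summit.

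The domains without Chd7 had a median length of 18.5 kb and ranged from 1.91 kb to 149 kb. Quartiles stood at 9.80 and 36.5 kb. They were built of 1 to 43 H3K27ac peaks with a median of 5, and a median of 41.6% of their length was covered by peaks. In 44 of 354 domains (12.4%), a single H3K27ac peak made up the whole domain. The domains with a Chd7 peak were built much alike, with a median length of 20.9 kb, a median of 5 H3K27ac peaks and 45.3% coverage. Summed over all 354, the domains without Chd7 spanned 8.93 Mb and held 2315 H3K27ac peaks, which were 7.38% of all H3K27ac peaks and carried 17.0% of the total score. Their widest single peaks had a median of 3.47 kb, against 3.83 kb in the domains with Chd7.

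Signal height was also close between both sets. The median of the highest pileup in a domain was 170.4 without Chd7 and 166 with Chd7, and the median fold enrichment of the strongest peak was 20.2 and 20.8. Median scores were 0.759 and 0.806 Mb times pileup. The share of domains without Chd7 was lowest among the 100 highest scores, at 46% (95% Wilson interval 36.6 to 55.7%), and lay between 55% and 68% in the following 5 groups of 100. It was 70% at ranks 601 to 1000, 79.9% at ranks 1001 to 2000 and 96.4% beyond rank 5000. These shares are a description, since score and Chd7 peaks selected the domains, and lower-scoring regions were also shorter, with a median of 1.14 kb. By length within the 600 domains, the share was 57.3%, 68%, 50% and 60.7% from the shortest to the longest of 4 equal length groups of the 600 domains.

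**Figure D1:**
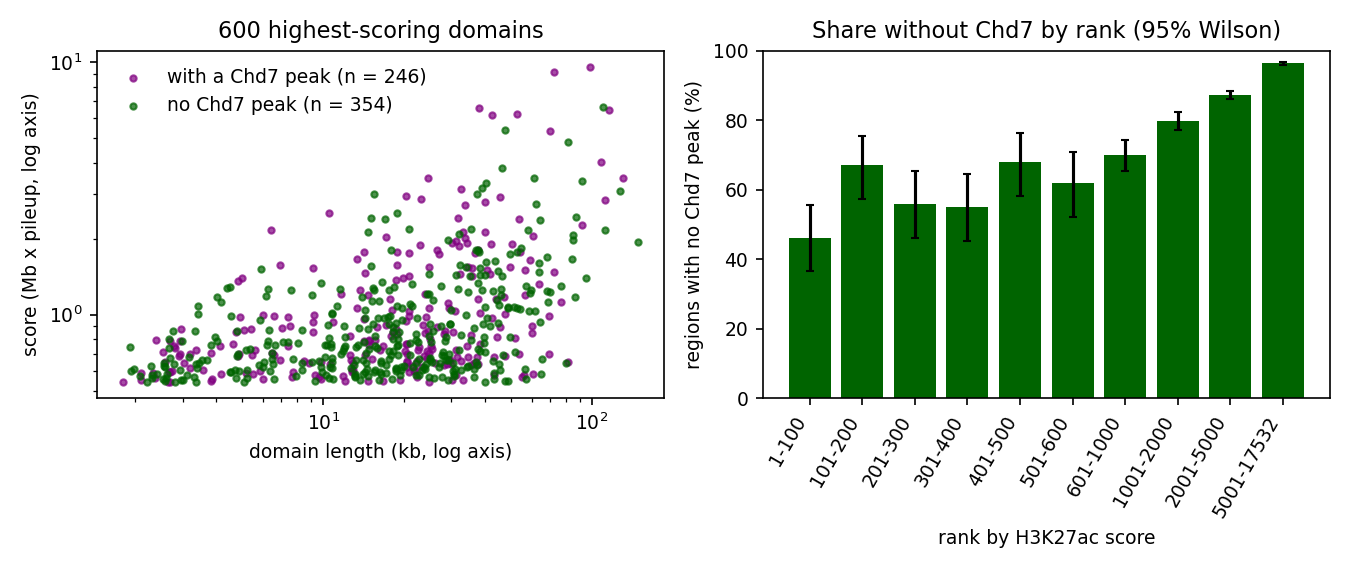
Left, length in kb against H3K27ac score in Mb times pileup (both log axes) for the 354 domains without and the 246 domains with a Chd7 peak. Right, percentage of joined regions without a Chd7 peak by rank of the score, with 95% Wilson intervals. The 2 sets overlap across the whole range of length, and the share without Chd7 goes from 46% at ranks 1 to 100 to 96.4% beyond rank 5000.

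The threshold at rank 600 fell within a smooth slope of scores. The domain at rank 600, at the protein phosphatase gene Ppm1a, had a score of 0.53944 Mb times pileup, and ranks 598 and 599 lay at Ehd1, a membrane recycling ATPase, and Numa1, a spindle protein. The regions at ranks 601 to 603, nearest to the start sites of Sstr2, Pde1c and Armc1, had scores of 0.53935, 0.53852 and 0.53806. By chromosome, all 5 domains on X lacked Chd7, as did 14 of 19 on chromosome 19, whereas 9 of 28 on chromosome 13 and 19 of 46 on chromosome 4 did.

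Most domains without Chd7 lay far from any Chd7 peak. The distance from the domain edge to the nearest Chd7 peak had a median of 239 kb, with quartiles of 100.3 and 780.1 kb. Only 3 of 354 domains had a Chd7 peak within 12.5 kb, 39 within 50 kb, 88 within 100 kb, 237 within 500 kb and 287 within 1 Mb. Few could lie close, because a Chd7 peak on an H3K27ac peak within 12.5 kb of the edge would have been joined into the domain. The nearest Chd7 peak itself sat on an H3K27ac peak for 299 of 354 domains (84.5%). The share over all Chd7 peaks was not computed, so this value cannot be called particular to these domains. For comparison, the domains with Chd7 had their next Chd7 peak outside the domain at a median of 232 kb, and the 15774 lower-scoring regions without Chd7 had a median of 393 kb.

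The 5 domains nearest to a Chd7 peak included 2 at potassium channel genes. The domain at Shc2, encoding an adaptor of receptor tyrosine kinases (chr10:79616108-79639490), lay 2.04 kb from a Chd7 peak. The distance was 4.21 kb for the domain over Igsf8 and Kcnj9, a subunit of G protein-gated potassium channels, and 9.60 kb for the one at Srrd, Hps4 and Asphd2. Prickle2, a planar polarity gene, and Kcnj6, another potassium channel subunit of the same family as Kcnj9, followed at 13.2 and 14.6 kb. At the other end were 4 domains of the X chromosome. The domains at Hcfc1, a transcriptional coregulator, and at Flna and Emd, coding for filamin A and emerin, lay 25572 and 25284 kb from the nearest Chd7 peak. The domain nearest to the start site of Olfr1324 lay 8023 kb away, and the one over the gene model Gm26992 lay 3941 kb away. The farthest domain on an autosome was that of Zeb2, a zinc finger repressor (chr2:45088628-45117839), at 4334 kb.

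**Figure D2:**
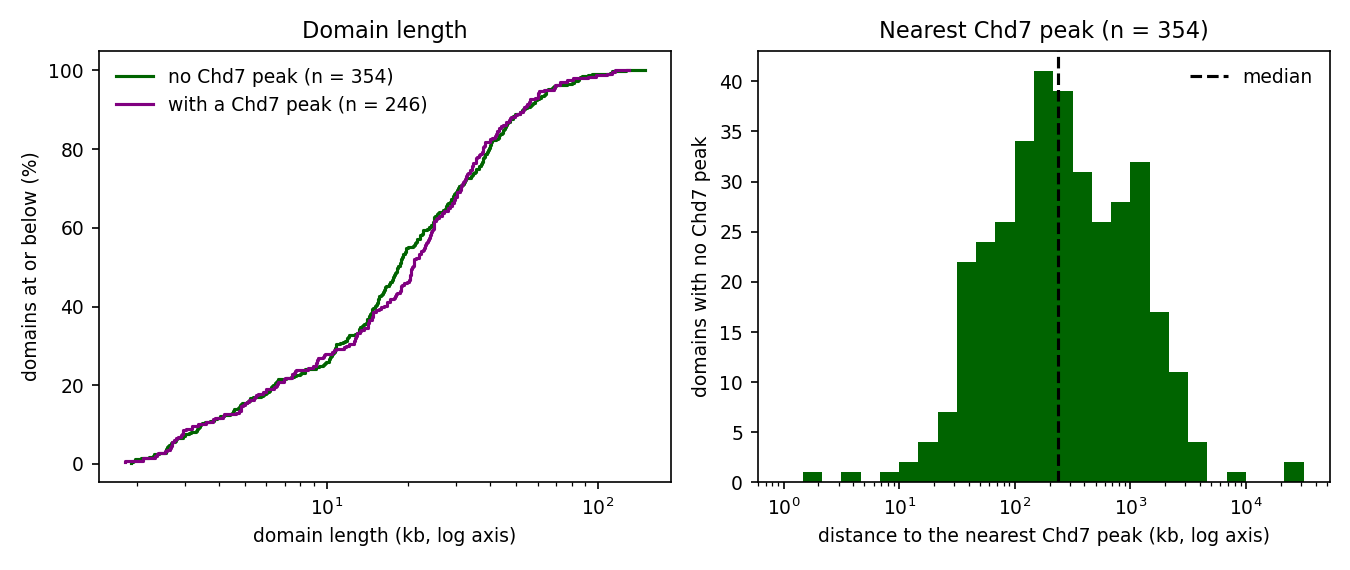
Left, cumulative percentage of domains by length in kb (log axis) for both sets. Right, number of domains without Chd7 by distance to the nearest Chd7 peak in kb (log axis), with the median of 239 kb as a dashed line. The length curves run close together, and few domains lie under 12.5 kb from a Chd7 peak.

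Some of these domains shared a gene with Chd7 further along its body. Of 319 domains that overlapped a protein-coding gene or its start site, 29 (9.09%) had a Chd7 peak elsewhere in that gene, and 24 (7.52%) when the read-through model Gm20388, which spans several genes and was set aside after its values were seen, was not counted. For 17 domains, another domain of the same gene held Chd7, and no background share was computed for any of these counts. Chd7 itself was among these genes. The domain at its start site (chr4:8682966-8696582, rank 241) was 13.6 kb long with 7 H3K27ac peaks and held no Chd7 peak, while the gene body held 3 Chd7 peaks and a separate domain with Chd7. The nearest Chd7 peak lay 63.0 kb from the promoter domain. The same arrangement was seen for Cacna2d1, a calcium channel subunit, with 1 Chd7 peak in the gene 137 kb from the promoter domain.

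The start site of a protein-coding gene lay inside 244 of 354 domains without Chd7 (68.9%, 63.9 to 73.5%), against 34.9% of all joined regions. Another 75 lay in gene bodies only and 35 (9.89%) outside protein-coding genes. Among the domains with Chd7, 58.9% held a start site and 15.9% lay outside genes. The difference in start sites was 9.98 percentage points (95% Newcombe interval 2.20 to 17.7), and that in domains outside genes was -5.97 points (-11.7 to -0.591). The domains without Chd7 were thus more often promoter-containing. The strongest H3K27ac peak lay within 1 kb of a start site in 46.9% of them and in 38.2% of the domains with Chd7. The excess of start sites was -0.742 points (-5.76 to 3.64) when H3K27ac peaks near start sites were left out before joining, and 2.52 points (-5.83 to 10.8) when regions were scored by length only.

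In gene-dense stretches 1 domain covered several promoters. Of the 354 domains, 140 held 1 protein-coding start site, 94 held 2 to 4 and 10 held 5 or more, the most being 10 at Syvn1, Fau and Cdca5 on chromosome 19 (named after its value was seen). In all, 427 of 21755 protein-coding genes (1.96%) had their start site in a domain without Chd7 and 277 (1.27%) in a domain with Chd7.

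The 10 highest-scoring domains without Chd7 were led by transcription factor, cytoskeletal and signalling genes. The first was the Nfix domain at rank 3 (chr8:84705551-84816036), which stretched over 110.5 kb with 33 H3K27ac peaks and scored 6.67 Mb times pileup. Nfix encodes a nuclear factor I protein that acts in the maturation of granule neurons, and its start site lies 94.8 kb into the domain, beside the widest H3K27ac blocks. Its relative Nfia followed at rank 12 (chr4:97751080-97797237, 46.2 kb, 10 peaks). A further domain inside the Nfia gene, at rank 114, was 95.3 kb long with 29 H3K27ac peaks and was the fifth in length.

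Map3k1, coding for a kinase at the head of a MAP kinase cascade, held rank 8 (chr13:111771445-111818766) with 47.3 kb and a score of 5.39. Rank 10 fell to Ppp2r2c, a regulatory subunit of protein phosphatase 2A, with 81.5 kb and 22 peaks. The pair of alpha-tubulin genes Tuba1a and Tuba1b shared a domain of 60.7 kb at rank 14, which lay 1148 kb from the nearest Chd7 peak. Rank 17 held the start sites of Mphosph9 and 2810006K23Rik and part of Cdk2ap1, a gene of a CDK2-associated protein. Rank 18 held Pdrg1 and Xkr7, and rank 20 the DNA replication gene Gins2 together with part of Gse1, 127 kb in all. Both remaining domains carried noncoding genes only, 9330198N18Rik at rank 16 (91.6 kb) and Mir9-3hg at rank 21 (37.3 kb).

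By length, the first domain reached from Mtfr1l and Selenon, a selenoprotein of the endoplasmic reticulum, into Man1c1 on chromosome 4 (chr4:134534861-134683853). It measured 149 kb and held 43 H3K27ac peaks, yet ranked 55 by score because only 25.7% of it was covered. The Gins2 domain came second and the domain at Ulk4 and Trak1, a mitochondrial transport adaptor, was the third, with 112 kb and 33 peaks. Nfix was the fourth.

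Several domains outside protein-coding genes held noncoding RNA genes. The miR-9 precursors are made from 3 loci, and all 3 lay in domains ranked 21 or higher. Mir9-2 (rank 4) and Mir9-1 (rank 19) lay in domains with Chd7, whereas the Mir9-3 domain held none and lay 979.8 kb from the nearest Chd7 peak. The single Chd7 peak of the Mir9-1 domain was weak, with a -log10 q of 3.18. At a -log10 q of at least 5, that domain would also count as without Chd7. The 3 loci encode the same mature miRNA, a regulator of neural progenitors, shown from RefSeq for Mir9-3 (chr7:79505279-79505301, plus strand) with its seed, bases 2 to 8, in capitals.
miR-9-5p: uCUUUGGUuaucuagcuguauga
The host gene of Mir124a-1, a precursor of the neuronal miR-124, lay in a domain without Chd7 at rank 34. Malat1, an abundant nuclear noncoding RNA, lay in one at rank 52, where the nearest Chd7 peak was 51.6 kb away. Altogether 30 of the 354 domains without Chd7 held 34 miRNA genes, 24 of them with a sequence in RefSeq. Of the 246 domains with Chd7, 20 held 30 miRNA genes. No share over all joined regions was computed, so these counts cannot be called particular to either set. The Mir124a-1 and Malat1 domains were named after their values were seen.

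**Figure D3:**
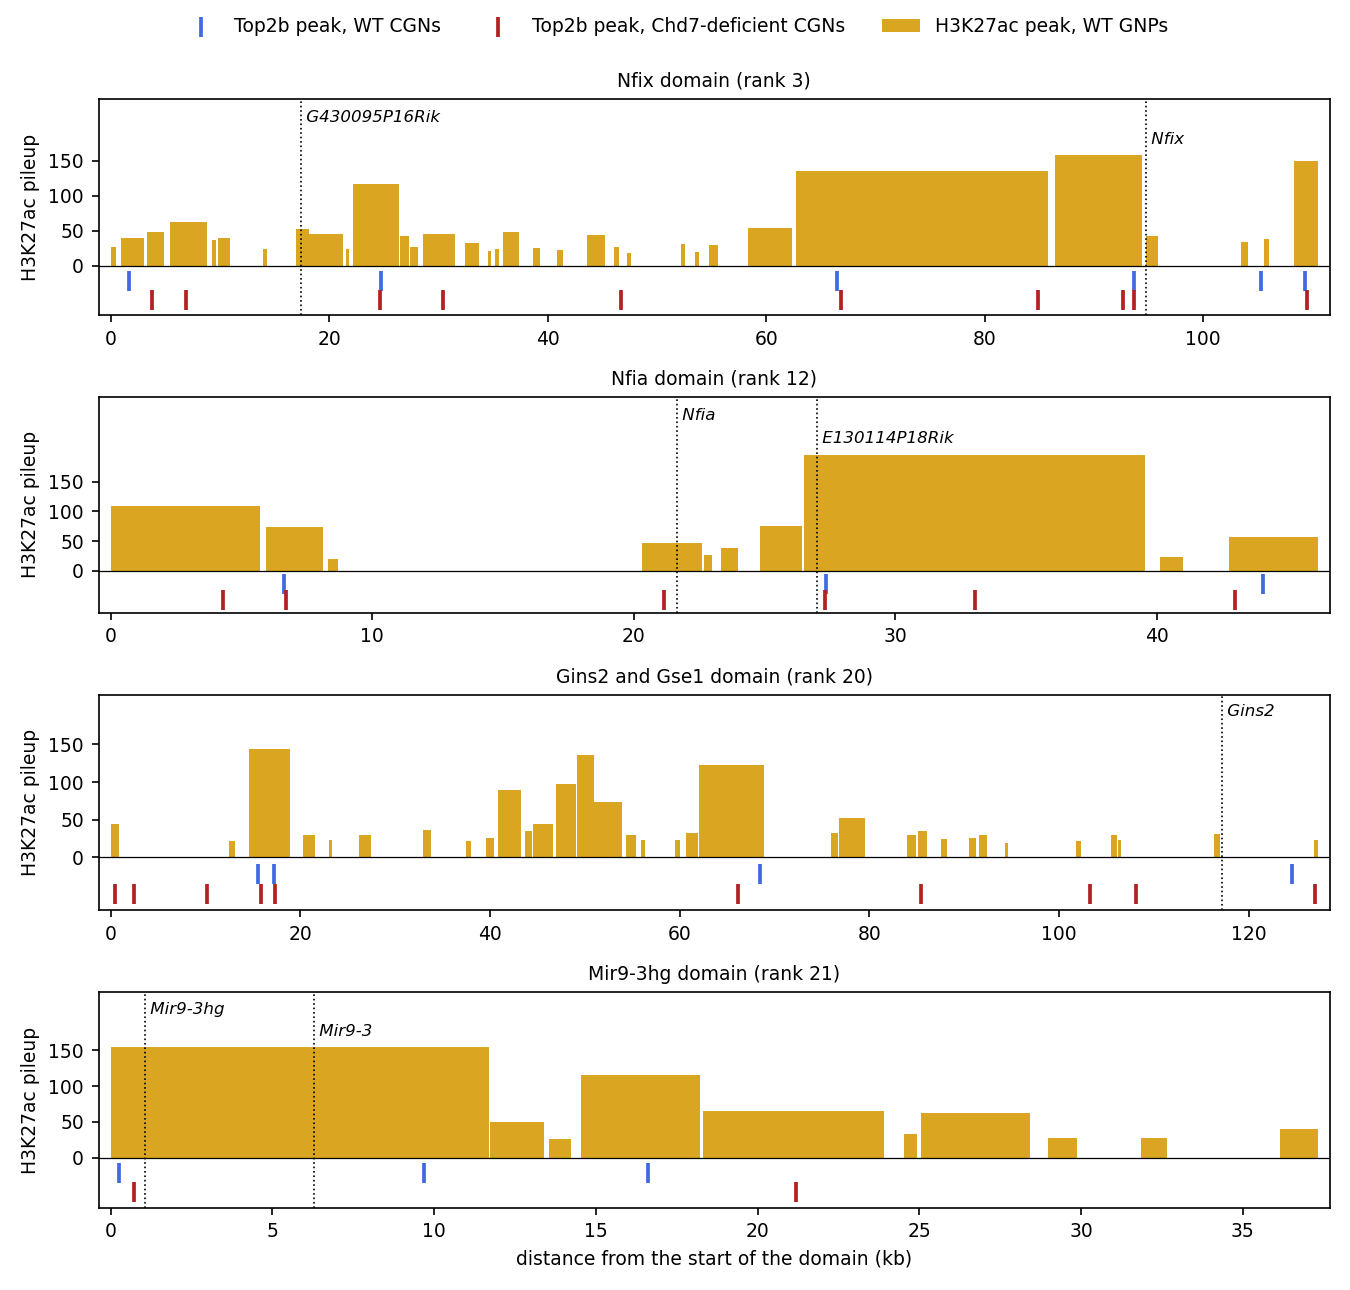
H3K27ac peaks of WT GNPs (bar height, pileup at the summit), Top2b peaks of WT and Chd7-deficient CGNs (ticks) and selected start sites (dotted lines) against distance in kb from the domain start, for 4 domains without a Chd7 peak. The Nfix domain holds 33 H3K27ac peaks, with 6 Top2b peaks in WT and 10 in Chd7-deficient CGNs.

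Transcription factors of the granule lineage were divided between both sets of domains. Of 38 listed factors, 12 had their start site in a domain without Chd7 (31.6%) and 11 in a domain with Chd7 (28.9%), beside 1.96% and 1.27% of all protein-coding genes. The 12 were Nfix, Nfia, the bHLH genes Nhlh1, Nhlh2 and Neurod2, the homeobox genes Barhl1, Lhx1 and En2, the zinc finger genes Insm1, Zbtb18 and Myt1l, and Sox4. The 11 with Chd7 were Zic1, Zic2, Zic4, Zic5, Meis1, Pax6, Uncx, Neurod1, Nfib, Sox11 and Myt1. Members of 1 family could therefore fall on either side. In the nuclear factor I family, Nfix and Nfia held 0 Chd7 peaks in the gene and Nfib held 5. Outside the gene, Nfia was the nearest protein-coding start site, 84.6 kb away, of the rank 26 domain with 3 Chd7 peaks. Among the Neurod, Sox and Myt genes, the domains of Neurod2, Sox4 and Myt1l held no Chd7 peak while those of Neurod1, Sox11 and Myt1 held 1 each. All 4 Zic genes with a domain had Chd7. Several of these calls were weak. The single peaks in the Neurod1, Myt1, Meis1, Pax6 and Uncx domains had a -log10 q of 3.65, 4.79, 2.48, 4.22 and 3.64. The single peak in the Nfib start site domain had 2.22. At a -log10 q of at least 5, all these domains would count as without Chd7. The domains at ranks 6 and 96, inside the Nfib gene, held peaks of 6.75 and 5.07. The single peaks in the Sox11 domain and the Zic1 and Zic4 domain had 6.88 and 5.25. Atoh1, the factor that specifies granule cells, had its start site in a joined region below rank 600.

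The 12 transcription factor domains without Chd7 measured 10.3 to 110.5 kb and lay 28.1 to 2292 kb from the nearest Chd7 peak, with a median of 212 kb. Nearest was Insm1, a zinc finger gene of newborn neurons, at 28.1 kb, followed by Nfix at 30.9 kb and Barhl1, a homeobox gene of GNPs, at 36.4 kb. Sox4 was farthest.

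Counts in the SHH pathway were small. Of 23 listed pathway and target genes, Boc, a co-receptor of SHH, was the sole gene with a start site in a domain without Chd7, which was 84.4 kb long with 27 H3K27ac peaks (4.35% of the list, 0.772 to 20.99%). Sufu and Ptch1, both negative regulators of the pathway, and the mitogenic targets Mycn and Ccnd2 lay in domains with Chd7 (17.4% of the list). The single Chd7 peaks of the Sufu, Ptch1 and Mycn domains had a -log10 q of 8.09, 3.16 and 5.06. Of 29 cell cycle and replication genes, the mitotic kinase gene Aurkb and the helicase gene Mcm2 started in domains without Chd7 (6.90%, 1.91 to 22.0%). The cell cycle inhibitor gene Cdkn1b started in one with Chd7 (3.45%), whose single Chd7 peak had a -log10 q of 1.82. Beside these, 1.96% and 1.27% of all protein-coding genes started in domains without and with Chd7. The intervals of both shares without Chd7 include 1.96%.

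Among 39 chromatin genes, 6 started in domains without Chd7 (15.4%, 7.25 to 29.7%) and 2, Arid1a and Setd5, in domains with it (5.13%), beside 1.96% and 1.27% of all protein-coding genes. The 6 were the remodeller genes Chd2, Chd4 and Chd7, the H3K27 demethylase gene Kdm6b, the BAF subunit gene Arid1b and Ep300, which codes for an acetyltransferase that writes H3K27ac. The Ep300 domain was a single peak of 1.93 kb, the Chd4 domain 37.8 kb with 7 peaks. The neuronal list of 50 genes gave 5 without Chd7 (10%, 4.35 to 21.4%) and 3 with Chd7 (6%). Without Chd7 these were Tubb3, a tubulin of neurons, Cadps2, a factor of vesicle release, Cacna2d1, Rbfox3 and Ephb2, a guidance receptor. Rbfox3 is the splicing factor known as NeuN. Those with Chd7 were Sema6a, Unc5c and Gpm6a. The Cadps2 domain lay 33.7 kb from the nearest Chd7 peak, so its place in this set concerns the domain and not its surroundings. The study named Cadps2 among the genes bound by Chd7.

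None of 54 markers of Purkinje cells, interneurons, astrocytes and Bergmann glia, oligodendrocytes, microglia and blood, or endothelium and meninges had its start site in any of the 600 domains, and 11 of them started in lower-scoring H3K27ac regions. With 1.96% and 1.27% of all protein-coding genes starting in domains without and with Chd7, a count of 0 of 54 is near the background. The gene body of 1 marker, Pdgfra of the oligodendrocyte lineage, held a domain with Chd7. Genes with lower transcript levels in Chd7-deficient GNPs, taken by name from the supplement of the study, were compared as a further list. Of 147 matched genes, 6 started in domains without Chd7 (4.08%) and 5 in domains with Chd7 (3.40%), beside 1.96% and 1.27% of all protein-coding genes. The interval of the first share, 1.88 to 8.62%, includes its background. The 6 were Peli2, a ubiquitin ligase gene, Pard6a, a polarity gene, Cadps2, Sept4, Cacna2d1 and Gm3510, the last 2 in the same domain. Over these lists together, 30 genes started in 29 domains without Chd7.

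**Figure D4:**
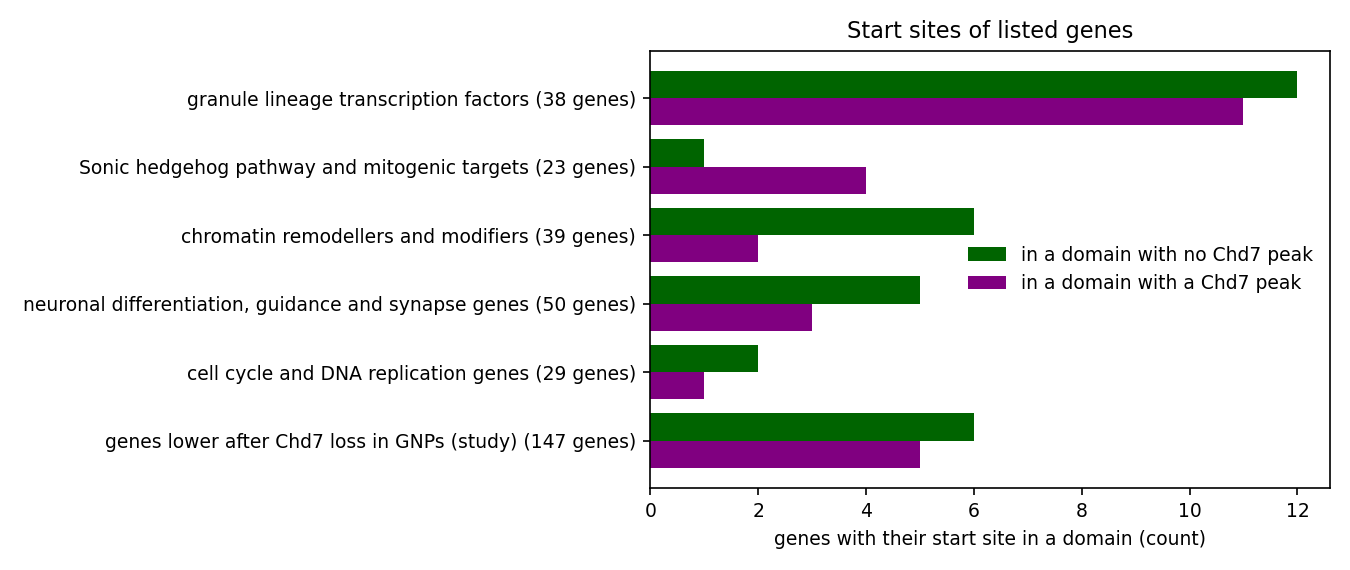
Number of genes of each list whose start site lay in a domain without Chd7 or with Chd7, with the number of genes matched in brackets. Granule lineage factors are divided 12 to 11, SHH pathway genes 1 to 4 and chromatin genes 6 to 2.

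Top2b was measured in other cells than those that selected the domains, and its shares were close in the domains with and without Chd7. In WT CGNs, 216 of 354 domains without Chd7 (61.0%, 55.8 to 66.0%) held at least 1 Top2b peak, against 59.3% of the domains with Chd7, 14.8% of the lower-scoring regions and 16.4% of all joined regions. The difference between both sets of domains was 1.67 percentage points (-6.22 to 9.62). In Chd7-deficient CGNs, the share was 79.1% (74.6 to 83.0%) without Chd7 and 76.4% with Chd7, a difference of 2.67 points (-3.98 to 9.57), and 29.4% of all joined regions. These intervals include 0 and also differences of several points in either direction. With Chd7 peaks of -log10 q of at least 5 alone, the second difference was 9.71 points (1.37 to 19). Domains were much longer than lower-scoring regions, with medians of 18.5 and 1.14 kb, and Top2b peaks per Mb of domain without Chd7 (38.1) were fewer than per Mb of lower-scoring regions (49.0) in WT CGNs.

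The number of Top2b peaks in the domains without Chd7 was 340 in WT and 526 in Chd7-deficient CGNs, a ratio of 1.55. The ratio was 1.60 in the domains with Chd7, 1.91 in the lower-scoring regions, 1.12 outside joined regions and 1.26 over all peaks on chromosomes 1 to 19 and X, where the libraries had 17019 and 21497 peaks. More Top2b peaks were thus called in the Chd7-deficient library also in domains that had held no Chd7 peak in GNPs. These are raw counts of called peaks. The study compared Top2b peaks between the genotypes with MAnorm. It reported more genes with a decreased than with an increased Top2b peak in Chd7-deficient CGNs. Domain by domain, 168 of the 354 had more Top2b peaks in Chd7-deficient CGNs, 56 had fewer and 130 had equal numbers. These were 47.5%, 15.8% and 36.7%, close to 47.6%, 17.1% and 35.4% of the domains with Chd7. A peak in both genotypes was found in 190, in Chd7-deficient CGNs alone in 90 and in WT CGNs alone in 26. Neither genotype had a peak in 48. These were 53.7%, 25.4%, 7.34% and 13.6%, against 50.8%, 25.6%, 8.54% and 15.0% of the domains with Chd7. With 1 library per genotype, the part of library depth in these counts was not tested.

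Positions of single Top2b peaks often changed between the libraries. Of the 340 WT peaks in domains without Chd7, 124 (36.5%) overlapped a peak of Chd7-deficient CGNs, against 32.9% in domains with Chd7, 39.3% in lower-scoring regions and 11.5% outside. Most lay on H3K27ac peaks of GNPs, 291 of 340 (85.6%) in WT and 458 of 526 (87.1%) in Chd7-deficient CGNs. These shares were 86.8% and 94.2% in domains with Chd7 and 89.9% and 93.9% in lower-scoring regions. Within 1 kb of a protein-coding start site lay 22.6% and 28.9%. In domains with Chd7 these were 21.7% and 25.7%, and in lower-scoring regions 39.6% and 51.4%.

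The share with Top2b varied with the length of the domain. In the shortest of the 4 length groups, 50% of the domains without Chd7 held a WT Top2b peak and 69.8% a peak of Chd7-deficient CGNs, and in the longest 79.1% and 91.2%. By position relative to genes, the shares in WT CGNs were close, with 61.5% of the domains with a start site, 61.3% of those in gene bodies and 57.1% of those outside genes. The corresponding shares in Chd7-deficient CGNs were 82.8%, 74.7% and 62.9%.

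**Figure D5:**
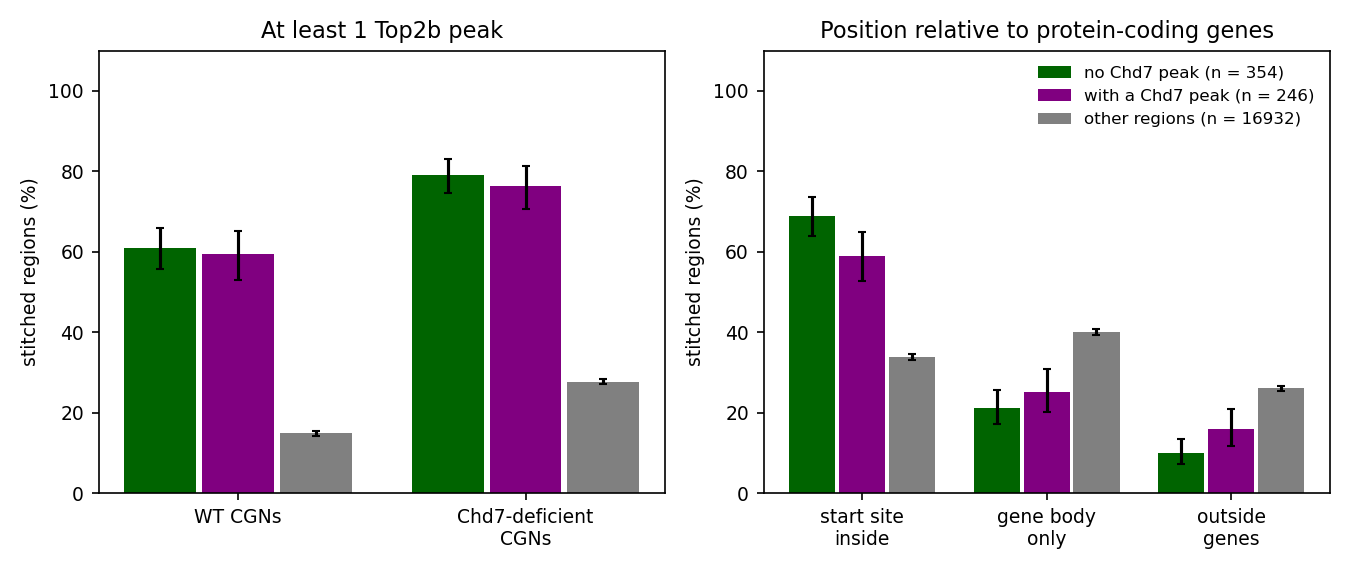
Percentage of joined regions with at least 1 Top2b peak in WT and Chd7-deficient CGNs (left) and by position relative to protein-coding genes (right), for domains without Chd7, domains with Chd7 and all other joined regions, with 95% Wilson intervals. Both sets of domains stand at 61.0% and 59.3% in WT CGNs, far above 14.8% in other regions.

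Nfix held the most Top2b peaks of the domains without Chd7 in WT CGNs, 6, of which 4 overlapped 1 of the 10 peaks of Chd7-deficient CGNs. In the Gins2 and Gse1 domain the numbers were 4 and 10, and 2 of the 4 were shared. This was the largest excess of called peaks in the Chd7-deficient library among the 354 domains. In 20 of them the excess was 3 or more, a count that was not made for other regions. The domain with Chd7 at rank 49 had 1 and 8. The Nfia domain had 3 and 6. The opposite was seen over Mtss1, a gene of membrane curvature and actin, where 5 WT peaks stood against 1. No other domain without Chd7 had 3 or more fewer called peaks in Chd7-deficient CGNs. The domain of Mtfr1l, Selenon and Man1c1 had 5 in each, and that of Prrc2b had 5 and 3. In the Mir9-3hg domain, the 3 WT peaks and 2 peaks of Chd7-deficient CGNs shared no position.

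Over the 12 transcription factor domains, 9 held Top2b in WT CGNs and all 12 in Chd7-deficient CGNs, with 20 and 34 peaks. Lhx1, Neurod2 and Sox4 had 0 in WT and 1 in Chd7-deficient CGNs, and En2 had 2 and 1. The 6 chromatin gene domains held 5 and 10. At the Chd7 promoter domain 1 and 2 peaks were called, and at Cadps2 1 and 0.

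In Chd7-deficient GNPs, 0 of the 354 domains held a peak of the Chd7 antibody, which allows a share of up to 0.847% by 3 counts of 354 and 1.07% by the Wilson interval. None of the 246 domains with Chd7 did either, and that library had 96 peaks in all. Many Chd7 peaks in the domains were weak. Of the 246 domains with Chd7, 194 held 1 Chd7 peak, and 125 held none with a -log10 q of at least 5, so that 479 of the 600 domains lacked Chd7 at that threshold. Absence of a peak therefore means below the detection of this 1 library and not absence of the protein.

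Base composition differed moderately between both sets. In windows reaching 100 bp to either side of the summit, the strongest H3K27ac peak had a median GC content of 62.7% in domains without Chd7 and 57.2% with Chd7. By the criteria of GC over 50% and a CpG ratio above 0.6, 189 of 354 (53.4%) and 114 of 246 (46.3%) strongest peaks were CpG-rich. Of all H3K27ac peaks, not the strongest alone, 25.8% were CpG-rich. The difference in GC was also present over all H3K27ac peaks of the domains more than 1 kb from a start site, at 52.2% against 49.3%, the latter value being equal to that of all such H3K27ac peaks.

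Short motifs of factors active in GNPs were counted in both sets. In the 2315 H3K27ac windows of the domains without Chd7, searched on both strands, the CAGATG E-box bound by Atoh1 and Neurod proteins occurred in 15.7% (14.3 to 17.2%), against 16.2% in domains with Chd7 and 15.1% of all H3K27ac windows. The nuclear factor I half-site TTGGCA occurred in 9.50%, 9.65% and 9.68%. The CAGCTG E-box was found in 14.0%, 11.1% and 12.3%, and the Zic motif CAGCAGG in 8.55%, 6.52% and 8.18%. In the other direction, the Sox motif ACAATG occurred in 7.39% (6.39 to 8.52%), 11.0% (9.54 to 12.6%) and 8.93%, and the Mef2 motif TATTTATA in 0.432%, 1.28% and 0.602%. The Gli core ACCACCC was present in 3.89%, 2.81% and 3.24%, and the AP-1 motif TGACTCA in 3.67%, 2.69% and 2.88%. The Sox and Mef2 motifs were thus less frequent in domains without Chd7, where GC content was higher, though Mef2 rests on 10 and 20 windows. The AP-1 motif, which also has more A and T than G and C, went the other way. Whether base composition set these rates was not tested. None of these motifs contains another, and a match describes letters in a window and not a bound site.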

How the data were processed

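ChIP-seq peaks of 5 libraries, 1 per condition, were analysed, and 2 input libraries were not analysed here. The authors trimmed reads with Trim Galore, mapped them to mm10 with Bowtie 1.0.0 keeping single alignments, and called peaks per library, with macs2 for H3K27ac and Chd7 and HOMER for Top2b. The deposited pileup is a coverage signal. The deposited fold enrichment (a ratio over local background) and -log10 q-value columns had lost their decimal points and were restored by dividing by 100000. The control library is not given in the sources used here. The Top2b files hold positions without scores, and depth is unknown.

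H3K27ac peaks were joined, scored and ranked, and overlap meant at least 1 bp. Distances run from edge to edge. Start sites came from GENCODE M21, the outermost alone for each gene, and sequences from GRCm38. Shares have 95% Wilson intervals and differences Newcombe intervals, which cover counting error only, since regions of 1 library are not replicates. No test across samples was possible. The domains and gene lists were chosen with earlier results of these data known. Regions named were the 10 highest-scoring, the 5 longest, the 5 nearest to and the 5 farthest from Chd7, those with the most WT Top2b peaks, those at rank 600 and those with a listed gene. Joining, overlaps, distances and intervals were checked on simulated peaks. Alternatives changed the joining distance, score, number kept, peak thresholds and overlap. Tables were handled with pandas 2.3.3 and numpy 2.4.6 under Python 3.11.15, sequences with pysam 0.24.0, intervals with scipy 1.17.1, and plots with matplotlib 3.10.9.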

Additional observations from a re-analysis of the deposited data

How the results depend on the processing

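Of 80 alternative values for 7 results, 48 stayed within the interval of the reported value (for counts, within 1.5 times). The 48 include those with Chd7 peaks shared with Chd7-deficient GNPs left out. That alternative changed no value, as no kept domain held a Chd7 peak of Chd7-deficient GNPs, so it was no check. The share of kept domains without Chd7, 59.0%, became 64.8% with a score from length only, 63.4% with 1000 regions kept, 63.3% without H3K27ac peaks within 2.5 kb of start sites and 79.8% with Chd7 peaks of -log10 q of at least 5. The last setting also moved the median distance from 239 to 842 kb and the number of domains with a listed gene from 29 to 45, as fewer Chd7 peaks were counted. Keeping 300 regions gave a distance of 199 kb, 17 domains with a listed gene, a median length of 27.5 kb and 69.8% with WT Top2b. Median length, 18.5 kb, was 8.06 kb and 37.5 kb with joining at 5 and 20 kb, 26.9 kb with length only, 14.7 kb with 1000 regions, 11.97 kb with H3K27ac -log10 q of at least 10 and 16.4 kb without peaks near start sites.

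The start site share, 68.9%, was 58.7% and 75.8% with joining at 5 and 20 kb, 50.4% with length only, 79.1% with all annotated genes, and, without peaks near start sites, 7.89%, with 7 domains holding a listed gene. The WT Top2b share, 61.0%, was 50.1% and 71.0% with joining at 5 and 20 kb, 52.5% with 1000 regions, 52.5% with H3K27ac -log10 q of at least 10 and 50.3% without peaks near start sites. In Chd7-deficient CGNs, 79.1% became 70.9%, 86.0%, 72.7%, 73.2% and 64.0% under those settings. Differences between domains without and with Chd7 were added after seeing the data. That in start sites stayed above 0 in 10 of 11 alternatives, its interval leaving out 0 in 9, and was -0.742 points without peaks near start sites. That in WT Top2b had an interval including 0 in all 11 alternatives. The 11 include the alternative without shared Chd7 peaks, which left both differences unchanged and so was no check. Counting a Chd7 peak within 5 kb as overlap moved the set only from 354 to 352 domains. Counting only the stronger Top2b peaks was not run, since those files carry no score. No paired analysis was possible because there is 1 sample per condition and no result comes from a test.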
